A study of Rattus norvegicus with 12 samples.

Results

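Granule neurons of the cerebellum (CbG) were compared with neurons of the frontal cortex (CTX) taken from the same rats. The comparison covers the 3 arrays titled as cerebellar granular layer and the 3 titled as cerebral cortex, paired by their biological replicate number, which is 6 of the 12 arrays of the series. A seventh array, labelled CA3 replicate 3, enters where its label is exchanged with that of CbG replicate 3, as described below. Within the study CbG neurons stand for those vulnerable to oxidative stress (VUL) and CTX neurons for those resistant to it (RES), and the question of this comparison is how the transcriptomes of these neurons differ before any stress.

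The rats were untreated Fisher 344/BN F1 hybrids aged 6 months, in every group alike. Cells were lifted from stained frozen sections by laser capture microdissection, from the CbG cell layer and from the frontal cortex (layers IV, V and VI), with the CA1 and CA3 regions of the hippocampus filling the remaining 6 arrays. RNA was amplified in 2 cycles and hybridized to the Affymetrix RAE230A array, so each array stands for the captured cells of 1 region of 1 rat. A captured area holds whatever lies under the laser, and in such samples fewer cells of a type and less RNA per cell cannot be told apart.

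Granule neurons are small glutamatergic cells packed in the deepest layer of the cerebellar cortex. They receive mossy fibres, are held in check by Golgi cells through GABA-A receptors that contain the alpha6 and delta subunits, and send parallel fibres to Purkinje cells. Pyramidal neurons of the deep layers of the neocortex are large glutamatergic projection cells that rely on calcium/calmodulin-dependent kinase signalling in their spines, and they lie among interneurons that carry peptides such as VIP, somatostatin and neuropeptide Y.

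Both tissues were first checked against their markers, and 1 array went against its label. *Gabra6* (probe set 1369861_at), the GABA-A receptor subunit found mainly in granule neurons, had signals of 3379.3 and 1282.9 in CbG replicates 1 and 2 but 15.4 in the array labelled CbG replicate 3. CTX neurons had 11, 15.2 and 48, so the third CbG array lay among them. The array labelled CA3 replicate 3 had 2567.6, where CA3 replicates 1 and 2 had 5.6 and 38.6. *Nrgn* (1370211_at), which encodes neurogranin, a calmodulin-binding protein of forebrain spines, turned the other way, at 3578.7, 6571.0 and 3901.0 in CTX neurons and 6450.7 for the third CbG label, against 21.8 for CbG replicate 1, 24.5 for CbG replicate 2 and 49.2 for the third CA3 label.

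Over all probe sets, the array labelled CbG replicate 3 correlated with CA3 replicates 1 and 2 at 0.9334 and 0.9230 and with CbG replicates 1 and 2 at 0.8575 and 0.8437 (Pearson, log2 signals, across probe sets of arrays that share a scale, given as a description). For the array labelled CA3 replicate 3 these were 0.8663 and 0.8504 with CA3 and 0.9324 and 0.9101 with CbG. The comparison is therefore given in 3 arrangements. They are the 12 arrays as labelled, the 10 arrays without the 2 in doubt, and the 12 arrays with these 2 labels exchanged, an arrangement taken from the values and not from any label. Values without further mention are over the 10 arrays, where CbG had 2 arrays and CTX 3. The number of arrays limits the precision, and p-values measure only the spread among these arrays.

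**Figure D1:**
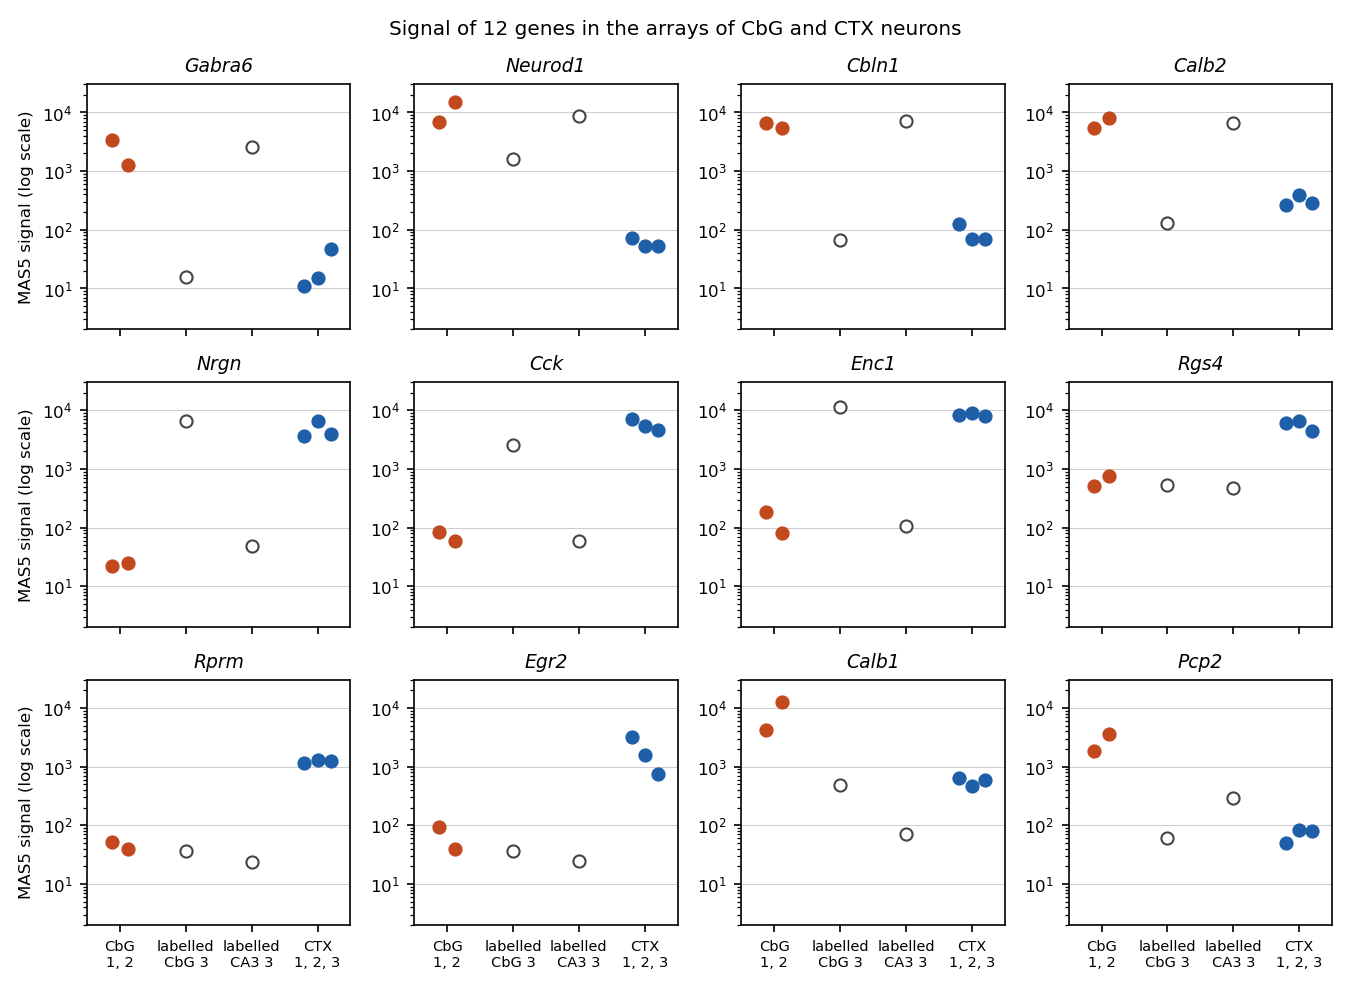
MAS5 signal (log axis) of 12 genes in 7 arrays, with CbG replicates 1 and 2 in orange, CTX replicates 1 to 3 in blue and the arrays labelled CbG replicate 3 and CA3 replicate 3 as open circles. For *Gabra6* the array labelled CA3 replicate 3 (2567.6) lies with CbG replicates 1 and 2 and the array labelled CbG replicate 3 (15.4) with CTX neurons, while *Rgs4*, *Rprm* and *Egr2* are low in both open circles.

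Sequence upstream of 4 of the most different genes is shown here, 2 higher in CbG and 2 higher in CTX neurons, so that the regulatory letters of genes with opposite patterns can be read beside their values. Each run is the 250 bases before the gene start, 5′ to 3′ on the gene's strand, from RefSeq on the rat build GRCr8, which holds an entry for 16 of the 24 genes of largest difference. In *Gabra6* (chr10:27327235-27327484, minus strand) and *Neurod1* (chr3:84770455-84770704, minus strand) capitals mark the E-box CANNTG, the letters that basic helix-loop-helix factors such as NeuroD1 itself bind. In *Vip* (chr1:44470230-44470479, plus strand) and *Egr2* (chr20:21054442-21054691, minus strand) capitals mark the core of the cAMP response element, TGACG, and the TATA box, TATAAA.
Gabra6: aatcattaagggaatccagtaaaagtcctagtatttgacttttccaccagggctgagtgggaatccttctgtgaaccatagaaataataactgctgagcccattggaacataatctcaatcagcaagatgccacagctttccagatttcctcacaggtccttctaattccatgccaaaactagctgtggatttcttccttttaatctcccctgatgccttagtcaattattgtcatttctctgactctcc
Neurod1: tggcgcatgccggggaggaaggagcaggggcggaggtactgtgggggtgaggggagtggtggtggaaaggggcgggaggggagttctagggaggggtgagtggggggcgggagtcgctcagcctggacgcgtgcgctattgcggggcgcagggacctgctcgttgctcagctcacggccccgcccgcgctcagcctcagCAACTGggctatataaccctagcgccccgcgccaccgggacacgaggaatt
Vip: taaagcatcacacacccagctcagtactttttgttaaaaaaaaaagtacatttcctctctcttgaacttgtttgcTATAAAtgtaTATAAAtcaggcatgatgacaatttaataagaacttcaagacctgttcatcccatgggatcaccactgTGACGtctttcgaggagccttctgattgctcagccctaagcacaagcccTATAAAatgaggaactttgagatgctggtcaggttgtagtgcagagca
Egr2: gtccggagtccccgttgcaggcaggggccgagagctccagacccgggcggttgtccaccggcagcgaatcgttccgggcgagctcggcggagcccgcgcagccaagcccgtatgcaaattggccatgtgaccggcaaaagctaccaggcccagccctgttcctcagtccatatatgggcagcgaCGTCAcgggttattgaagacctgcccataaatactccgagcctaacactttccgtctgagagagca
All motifs were searched on both strands, and no match overlapped one of another motif. The E-box had 0 matches in *Gabra6* and 1 in *Neurod1*, and 65.5% of 33469 rat promoters of this length held at least 1. TGACG occurred once in *Vip* and once, on the other strand, in *Egr2* (18.2% of promoters), and TATAAA occurred 3 times in *Vip* and 0 times in *Egr2* (12.9%). These are matches of letters and no evidence of a bound factor.

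Over 10 arrays 1063 of the 8986 probe sets tested were higher in CbG neurons (11.8%) and 966 were higher in CTX neurons (10.8%), at an adjusted p under 0.05 in limma and at least 1.5-fold. Differences were somewhat larger on the CTX side, where the median of the called probe sets was 2.67-fold and 143 passed 8-fold, against 2.17-fold and 64 on the CbG side. Leaving out only the array labelled CbG replicate 3, so that 11 arrays entered the fit, gave 173 and 257. Fitting the CbG and CTX arrays of the 10 alone gave 352 and 478, and testing all probe sets with no filter on low signals gave 280 and 414. As labelled, the counts were 24 (0.267%) and 39 (0.434%). With the labels exchanged they were 1779 (19.8%) and 1147 (12.8%). All 24 and all 39 as labelled were among those called over 10 arrays, and 97.8% and 92.5% of the calls over 10 arrays were also made with the labels exchanged.

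The split between the directions moved with the scaling. Signals were centred on each array's median, and the median difference of all probe sets was then 0.12 on the log2 scale over 10 arrays, 0.15 as labelled and 0.17 with the labels exchanged. Without centring it was -0.02, -0.02 and -0.01, and the counts were 779 higher in CbG and 1188 higher in CTX neurons over 10 arrays, 19 and 65 as labelled, and 1164 and 1497 with the labels exchanged. With quantile normalization they were 1013 and 1223, 26 and 80, and 1388 and 1462. Leaving out 1 array moved the 10-array counts by over 1.5 times in 3 cases, to 477 higher in CbG without CbG replicate 2, to 525 and 597 (CbG and CTX) without CTX replicate 1 and to 479 and 556 without CTX replicate 2.

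**Figure D2:**
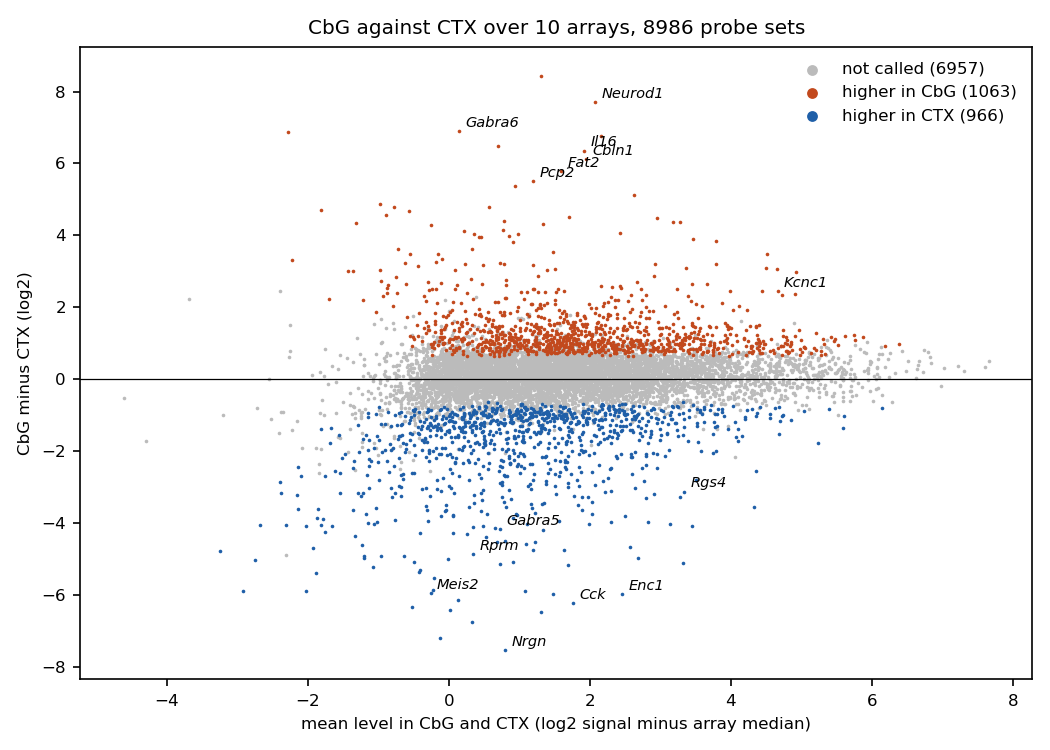
Difference between CbG and CTX neurons (log2, vertical axis) against their mean level (log2 signal minus the array median, horizontal axis) for 8986 probe sets over 10 arrays. Orange points (1063) were called higher in CbG and blue points (966) higher in CTX neurons, and *Neurod1*, *Gabra6* and *Nrgn* lie near the extremes.

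Genes known from granule neurons led the CbG side. *Neurod1* (1387288_at), a basic helix-loop-helix factor that granule neurons need to differentiate and survive, had signals of 6867.7 and 15335.0 in CbG replicates 1 and 2, against 73.7, 52.2 and 53.6 in CTX neurons, a log2 difference of 7.70 ± 0.45 (SE; limma, adjusted p = 1.35e-05). *Gabra6* differed by 6.91 ± 1.22 (adjusted p = 0.00489). Its signals in CTX neurons all lay under 50, and with signals under 50 set to 50 the difference was 5.52. The groups did not overlap for either gene.

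*Cbln1* (1376873_at), which encodes cerebellin 1, the protein that granule neurons release to bridge parallel fibres to Purkinje cells, had 6739.4 and 5447.9 in CbG replicates 1 and 2, against 123.5, 68.4 and 69.8 in CTX neurons (6.12 ± 0.32, adjusted p = 1.1e-05). *Fat2* (1368684_at), a large atypical cadherin of parallel fibres, had 4825.8 and 3233.9 against 109.9, 60.8 and 72.5. For both genes the array labelled CA3 replicate 3, with 7231.9 and 5515.8, was above every CbG array, and the array labelled CbG replicate 3, with 68.1 and 67.5, was within or just under the CTX range. *Calb2*, which encodes the calcium buffer calretinin, had 5493.3 and 8086.6 against 265.3, 393.3 and 287.0, and *Pax6*, a homeobox factor of granule precursors that stays on in adults, had 2465.2 and 2771.7 against 142.1, 84.2 and 223.6.

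The remaining genes of the largest differences on the CbG side were *Il16*, *Pkib*, *Unc13c*, *Patj*, *Pcp2* and *Car8*. *Il16* (1376895_at), which also gives rise to a neuronal scaffold protein with PDZ domains, had 6979.7 and 7317.5 against 117.4, 103.9 and 26.2, a log2 difference of 6.36 ± 0.36 (limma, adjusted p = 1.21e-05). *Pkib*, an inhibitor of protein kinase A, differed by 5.38, *Patj*, a scaffold of cell polarity, by 4.80, and *Unc13c*, a priming factor of synaptic vesicles, by 4.39. *Pcp2* and *Car8* are best known from Purkinje cells and are taken up with those markers.

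Of the 19 granule cell markers listed, 13 were on the array and 11 passed the filter on low signals, and 9 of these 11 were called higher in CbG and 0 higher in CTX neurons, with a median difference of 4.47 against 0.12 over all probe sets tested. Besides the genes above these were *Gabrd*, *Grin2c* and *Reln*. A gene found in CbG alone could pass the filter only through the arrays in which it was high, so the count describes the tested members and supports nothing. Of all probe sets 11.8% were called higher in CbG neurons. *Reln*, which encodes the secreted protein reelin and was chosen after its values were seen, had 12847.4, 14934.6 and 13227.9 over CbG replicates 1 and 2 and the third CA3 label, and 1934.9, 1224.8 and 881.9 in CTX neurons.

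On the CTX side the largest difference was that of *Nrgn*, -7.53 ± 0.24 (limma, adjusted p = 2.14e-06), or -6.41 with signals under 50 set to 50. *Cck* (1387032_at), the neuropeptide cholecystokinin of cortical neurons, had 7171.2, 5350.2 and 4683.5 in CTX neurons against 83.7 and 59.2 in CbG replicates 1 and 2 (-6.21 ± 0.27, adjusted p = 6.69e-06). *Enc1* (1388666_at), an actin-binding protein of ectodermal and neural cells, had 8352.5, 9091.8 and 7981.4 against 184.2 and 80.4. The array labelled CA3 replicate 3 had 58.8 for *Cck* and 108.0 for *Enc1*, next to the CbG arrays in both.

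Other genes of large difference were *Vip*, *Gda*, *Inf2*, *Mpped1*, *Vxn*, *Mmp17*, *Rasgef1b*, *Mef2c* and *Egr2*. *Vip*, the vasoactive intestinal peptide of a class of cortical interneurons, had 1403.5, 2256.0 and 1929.6 in CTX neurons against 43.7 and 8.6 in CbG replicates 1 and 2. *Gda*, guanine deaminase, had 2496.0, 2731.0 and 2288.4 against 91.8 and 5.2. *Inf2*, a formin that severs and nucleates actin, had signals under 50 in both CbG replicates and differed by -6.12, or -5.04 with signals under 50 set to 50. *Mpped1* differed by -5.97, *Vxn* by -4.95, *Mmp17*, a membrane-bound metalloproteinase, by -4.73 and *Rasgef1b*, an exchange factor for Ras proteins, also by -4.73.

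Of 25 tested transcription factors that pattern brain regions or respond to activity, 3 were called higher in CbG and 10 higher in CTX neurons, beside 11.8% and 10.8% of all probe sets, so the CbG share is near that of all probe sets. Their median was -0.05. *Meis2*, a homeobox factor, had 1364.4, 1179.3 and 1250.3 in CTX neurons and 14.8 and 24.4 in CbG replicates 1 and 2 (-5.93 ± 0.31, adjusted p = 1.09e-05 in limma), or -4.54 with signals under 50 set to 50. *Mef2c* (1373410_at), a MADS-box factor of forebrain excitatory neurons, had 3278.5, 4158.4 and 4025.4 against 145.8 and 60.5, and its other tested probe set differed by -5.11. *Egr2* (1387306_a_at), an immediate early gene, had 3152.0, 1572.3 and 742.6 against 93.3 and 38.9, and spread most among the CTX arrays of the genes in this paragraph. *Egr1*, another immediate early gene, chosen after its values were seen, had 5309.6, 7000.1 and 4814.2 against 1764.8 and 353.9.

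Of 9 tested markers of forebrain projection neurons, 8 were called higher in CTX neurons and 0 in CbG neurons (median -3.80). *Camk2a*, the alpha subunit of the calcium/calmodulin-dependent kinase II, had 1513.3, 2562.4 and 2045.9 in CTX neurons and 61.6 and 100.1 in CbG replicates 1 and 2. *Rgs4* (1368505_at), a regulator that speeds the shut-off of G proteins, had 6161.1, 6492.4 and 4458.5 against 505.5 and 756.4 (-3.11 ± 0.28, adjusted p = 0.000139). Of 6 tested markers of deep cortical layers, 4 were higher in CTX and 0 in CbG neurons (median -1.38). Of all probe sets 10.8% were higher in CTX neurons. A gene found in CTX alone, such as *Rprm*, could pass the filter only through the arrays in which it was high. The forebrain and deep-layer counts therefore describe the tested members and support nothing. *Rprm* (1390672_at), which encodes reprimo and marks layer VI, had 1158.4, 1324.9 and 1227.6 against 51.8 and 39.1. *Crym*, a thyroid hormone-binding protein, had 3779.2, 5146.7 and 3714.5 against 374.1 and 427.5. Unlike *Rprm*, *Crym* was also high in the hippocampus, at 5904.6, 7737.5 and 6303.5 in CA1 and 6183.8 and 4148.8 in CA3 replicates 1 and 2.

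The subunits of receptors for GABA and glutamate differed between the regions. Among 5 tested GABA-A receptor subunits, *Gabra6* and *Gabrd* were higher in CbG neurons and *Gabra5* and *Gabrb1* higher in CTX neurons (median 0.65). The shares of all probe sets were 11.8% and 10.8%. *Gabrd*, the delta subunit of receptors outside the synapse, had 3958.7 and 3261.8 in CbG replicates 1 and 2 against 419.5, 816.0 and 442.0 in CTX neurons (2.88 ± 0.32, limma, adjusted p = 0.000391). *Gabra5*, the alpha5 subunit, had 42.9 and 102.8 against 1360.9, 1116.0 and 1881.7 (-4.16 ± 0.37, adjusted p = 0.000129).

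Of 9 tested ionotropic glutamate receptor subunits, 2 were higher in CbG neurons, *Grin2c* and *Grik2*, and 4 higher in CTX neurons, *Gria1*, *Gria2*, *Gria3* and *Grik5* (median -0.78). The shares of all probe sets were 11.8% and 10.8%. *Grin2c*, the NMDA receptor subunit that granule neurons take up as they mature, had 1647.7 and 1562.2 in CbG replicates 1 and 2 against 528.6, 464.8 and 533.6 in CTX neurons (1.80 ± 0.21, adjusted p = 0.000476). *Gria3*, an AMPA receptor subunit, had 322.9 and 481.1 against 3160.4, 3539.8 and 3401.1 (-3.02 ± 0.26), and *Gria1* differed by -1.76. Of 4 metabotropic receptors (median 0.71), *Grm4*, the receptor of parallel fibre terminals, was higher in CbG neurons (786.7 and 453.7 against 123.4, 161.6 and 141.3) and *Grm3* higher in CTX neurons (98.2 and 85.0 against 1436.6, 1220.8 and 1319.5).

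Of 19 tested potassium channel genes, 2 were higher in CbG and 8 higher in CTX neurons (median -0.33). All probe sets had shares of 11.8% and 10.8%, and the CbG share of these genes was near the first. The larger difference on the CbG side was that of *Kcnc1*, a fast delayed rectifier of the Kv3 family, at 10764.6 and 10903.8 against 1222.4, 3243.5 and 2085.6 (2.46 ± 0.30, limma, adjusted p = 0.000747). Its relative *Kcnc2* was higher in CTX neurons, at 361.2 and 611.8 against 3784.9, 5604.8 and 3376.7 (-3.18 ± 0.23, adjusted p = 4.34e-05). *Kcnd2*, the Kv4 channel of the granule cell A current, chosen after its values were seen, had 5411.6 and 2714.3 against 1556.3, 1503.6 and 1429.3. *Kcna4* had signals of 1.4 and 65.0 in CbG replicates 1 and 2, and its difference of -4.68 became -2.10 with signals under 50 set to 50.

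Among 29 tested genes of calcium binding and calmodulin signalling, 9 were higher in CbG and 8 higher in CTX neurons, beside 11.8% and 10.8% of all probe sets. Their median of 0.07 became -0.07 without centring and -0.04 with quantile normalization. Members of the same families were found on both sides. *Camk2d*, the delta subunit of calcium/calmodulin-dependent kinase II, had 11897.9 and 13455.8 in CbG replicates 1 and 2 against 1679.8, 1761.0 and 1738.3 in CTX neurons, a difference opposite in sign to that of *Camk2a*. *Hpcal1*, a neuronal calcium sensor, had 8923.9 and 6158.0 against 398.5, 333.6 and 406.1, while *Ncald*, a sensor of the same family, had 298.7 and 143.1 against 5964.1, 5060.1 and 6419.0 (-4.66 ± 0.28, limma, adjusted p = 1.51e-05). *Atp2b3*, a plasma membrane calcium pump, had 5516.2 and 7507.2 against 1263.2, 2589.1 and 2013.7. *Camk2d*, *Hpcal1* and *Atp2b3* were chosen after their values were seen.

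Of 26 tested genes of synaptic vesicles, 8 were higher in CTX and 2 in CbG neurons, and of 20 tested genes of the cytoskeleton these were 7 and 1, with medians of -0.52 and -0.45. Of all probe sets 10.8% were higher in CTX and 11.8% in CbG neurons. *Stx1a*, a syntaxin of the release machinery, had 92.2 and 97.2 in CbG replicates 1 and 2 against 1544.1, 1249.0 and 1314.0 in CTX neurons (-3.73 ± 0.23, limma, adjusted p = 1.53e-05). *Synpr*, synaptoporin, differed by -4.37 and *Syt5*, a synaptotagmin, by -3.15. *Basp1*, a growth cone protein, had 42.8 and 214.8 against 1628.3, 1621.0 and 1738.8, and *Nefl*, the light neurofilament chain of large axons, had 454.5 and 452.5 against 2226.9, 2758.7 and 1362.6.

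Genes of mRNA splicing, DNA repair and ribosomes were called with 1 exception on the CbG side. These were 13 of 49 tested splicing genes against 1 higher in CTX neurons (median 0.53), 7 of 32 DNA repair genes against 0 (median 0.42) and 12 of 28 ribosomal proteins against 0 (median 0.84). Of all probe sets tested 11.8% were called higher in CbG and 10.8% higher in CTX neurons, with a median of 0.12. Part of the splicing, repair and vesicle lists overlaps lists that were selected on these same arrays. Members of other lists were also selected there, among them *Camk2a*, *Ncald*, *Gabra5*, *Nefl*, *Ldha*, *Acly* and *Mbp*. The counts of all these lists are not independent evidence of direction. *Dhx16*, an RNA helicase of the spliceosome, had 2020.4 and 1593.7 in CbG replicates 1 and 2 against 415.5, 474.5 and 428.7 in CTX neurons (2.15 ± 0.22, limma, adjusted p = 0.000246), *Hnrnpm* differed by 1.61 and *Son* by 1.41. *Son* had a dimmer probe set that differed by 0.32 and was not called. *Celf2*, a splicing regulator, was the exception, at -1.39, and its dimmer probe set at -0.64 was not called.

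Of the repair genes, *Rpa1*, a subunit of the protein that coats single-stranded DNA, had 754.3 and 866.3 against 233.6, 323.5 and 236.1 (1.75 ± 0.33, limma, adjusted p = 0.00689), and *Pcna*, the sliding clamp of DNA polymerases, differed by 1.08. Of the ribosomal proteins, *Rpl24* had 1568.9 and 2015.5 against 819.3, 739.5 and 934.5 (1.32 ± 0.23, adjusted p = 0.00431), while *Rpl23* had 19818.5 in CbG replicate 2 but 8711.3 in CbG replicate 1, against 6501.3, 5829.9 and 6537.3. The counts moved with scaling, to 10 and 7 for splicing, 5 and 7 for repair and 8 and 7 for ribosomal proteins without centring and with quantile normalization. Of all 8986 probe sets 779 and 1013 were higher in CbG neurons in these scalings. With quantile normalization the 7 of 49 splicing genes are near the share of all probe sets. The medians of all 3 lists stayed above that of all probe sets. As labelled 0 members of any of the 3 lists were called in either direction. With the labels exchanged 24, 10 and 20 members were higher in CbG neurons, beside 19.8% of all probe sets in that arrangement.

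Few genes of energy metabolism were called, where of all probe sets 11.8% were higher in CbG and 10.8% higher in CTX neurons. Of 44 tested genes of oxidative phosphorylation 1 was called, *Atp5mg*, a subunit of ATP synthase (1.28 ± 0.32, limma, adjusted p = 0.0227), with a median over the list of 0.35 that became 0.06 with quantile normalization. Of 16 glycolytic genes (median -0.27) 1 was called, *Ldha*, the lactate dehydrogenase A subunit, at 1407.3 and 1758.2 in CbG replicates 1 and 2 against 5399.3, 3787.3 and 3759.5 in CTX neurons (-1.30 ± 0.29, adjusted p = 0.0131). Of 25 citrate cycle genes (median 0.15) *Idh3g* was higher in CbG neurons (0.93) and 3 were higher in CTX neurons, a share near the 10.8% of all probe sets. Of the 3, *Acly*, ATP citrate lyase, differed by -1.51. Without centring and with quantile normalization 6 of the 25 were higher in CTX neurons. The count over all probe sets also rose there, from 966 to 1188 and 1223.

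Transcripts of the antioxidant enzymes SOD1, SOD2 and GPX1, which were among the proteins compared between cultured CbG and cortical neurons, did not pass the test in any arrangement. *Sod1* (1367641_at), the cytosolic superoxide dismutase, had 4613.6 and 5400.0 in CbG replicates 1 and 2 against 5180.4, 4922.7 and 4402.3 in CTX neurons, a difference of 0.14 ± 0.23 (limma, adjusted p = 0.7). *Sod2* (1370172_at), the mitochondrial one, had 300.8 and 525.4 against 409.3, 579.5 and 368.2 (-0.04 ± 0.32, adjusted p = 0.946). *Gpx1* (1367576_at), glutathione peroxidase 1, had 1364.3 and 789.0 against 1405.5, 1092.4 and 1557.9 (-0.13 ± 0.27, adjusted p = 0.756). The groups overlapped for all 3, and the sign of *Sod1* turned without centring and with quantile normalization.

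Among 29 tested antioxidant genes 4 were higher in CTX neurons and 0 in CbG neurons, with a median of 0.10 that became -0.04 without centring and -0.07 with quantile normalization. This share is near the 10.8% of all probe sets called higher in CTX neurons. *Gstp1*, a glutathione S-transferase, had 251.8 and 254.2 in CbG replicates 1 and 2 against 848.8, 619.7 and 724.7 in CTX neurons (-1.45 ± 0.22, limma, adjusted p = 0.0023), and *Gsta1* had 332.8 and 138.7 against 923.5, 396.0 and 895.4. Of 32 chaperone genes (median 0.23) 4 were higher in CbG and 2 in CTX neurons, or 4 and 4 with quantile normalization, and the 4 of 32 are a share near the 11.8% of all probe sets. *Hspb6*, a small heat shock protein, had 1760.1 and 1518.3 against 364.2, 408.5 and 579.1 (2.12 ± 0.24, adjusted p = 0.000466), and *Hsph1*, a large one, differed by -0.96. In the MAPK cascade 4 of 16 genes were higher in CbG and 3 in CTX neurons, beside 11.8% and 10.8% of all probe sets. Their median was 0.17, or -0.02 with quantile normalization, and the phosphatases *Dusp5* (1.88) and *Dusp6* (-2.67) were on opposite sides.

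Over the 26 lists 719 genes were listed, of which 576 were on the array and 457 were tested, and all list counts are over the tested members. A member high in its region alone could be tested only through those arrays, so the counts describe the tested members. Of the 81 genes named here that were called over 10 arrays, 65 kept the call when each of the 10 arrays was left out in turn. *Gfap* lost it in 9 of these fits, within 0.44 to 1.55, *Pcna* in 7 (0.69 to 1.48) and *Rpl23* in 6 (0.52 to 1.89). *Sst* (-2.31 to -1.66) lost it without either CbG array and without CTX replicates 1 or 2, *Hsph1* (-1.19 to -0.73) without CbG replicate 1 and CTX replicates 1 or 2, *Ldha* (-1.60 to -0.97) without CbG replicate 1 or CTX replicate 1, and *Kcna4* (-7.50 to -1.87) without CTX replicates 1 or 3 or CA1 replicate 3. *Pvalb* (1.07 to 2.44), *Rpa1* (1.59 to 2.00) and *Grik2* (0.98 to 1.58) lost it without CbG replicate 2, *Mobp* (-1.90 to -1.22) without CTX replicate 2, and *Aqp4* (0.85 to 2.32), *Celf2* (-1.91 to -0.87), *Mbp* (-1.76 to -0.92), *Idh3g* (0.77 to 1.095) and *Atp5mg* (0.75 to 1.82) without either of these 2 arrays, the last 2 genes without other arrays too. None of these differences changed sign.

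**Figure D3:**
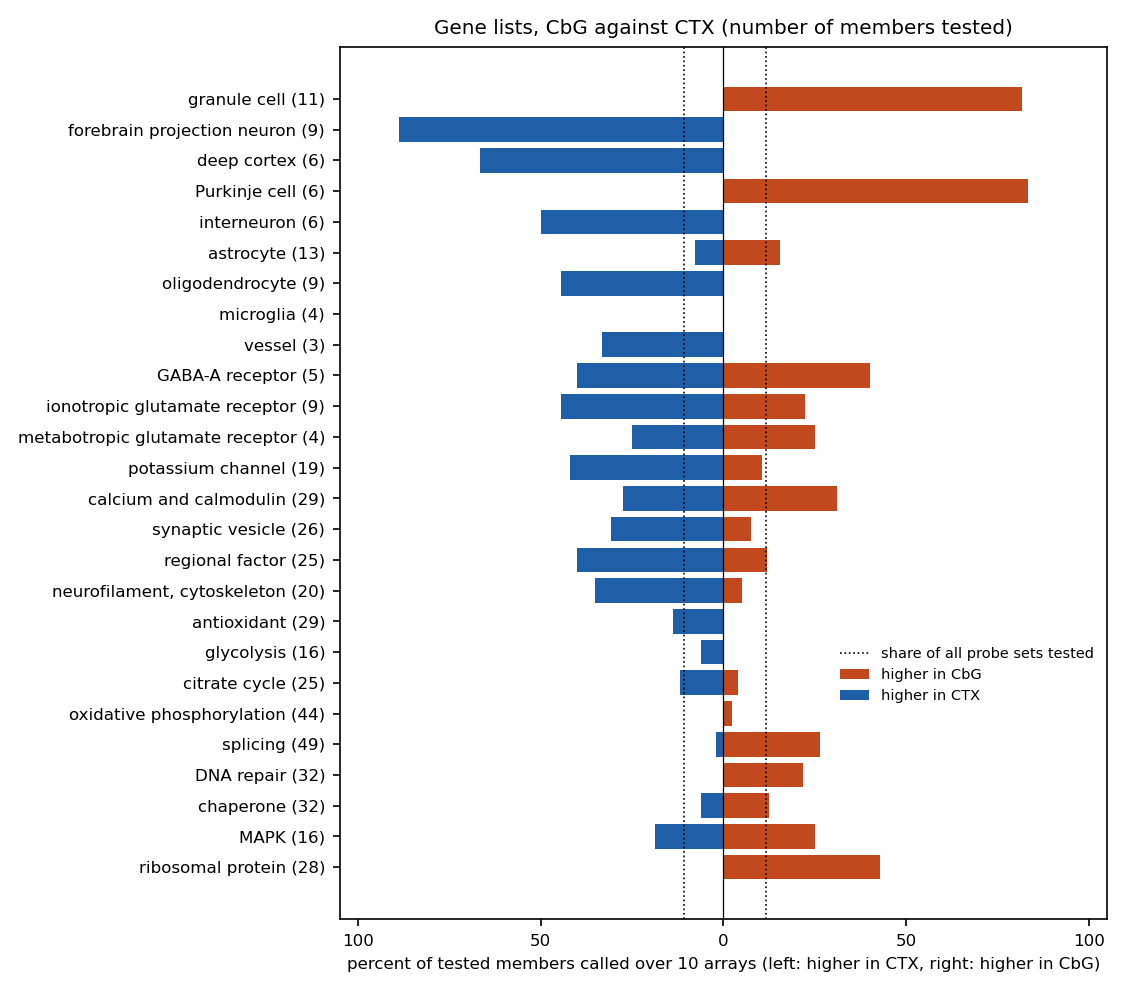
Percent of the tested members of each gene list called over 10 arrays, to the right those higher in CbG (orange) and to the left those higher in CTX neurons (blue), with the number tested in brackets. Dotted lines mark the share of all 8986 probe sets called in each direction (11.8% and 10.8%), and ribosomal, splicing and repair lists reach beyond the line on the CbG side with at most 1 member on the other.

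Markers of other cells moved with the comparison. Of 6 tested Purkinje cell markers 5 were higher in CbG and 0 in CTX neurons over 10 arrays (median 2.82), beside 11.8% and 10.8% of all probe sets. Their signals were uneven among the arrays. *Calb1* (1370201_at), calbindin, had 4181.2 and 12798.2 in CbG replicates 1 and 2 and 648.8, 472.8 and 588.2 in CTX neurons, while the array labelled CA3 replicate 3, which had the granule cell genes, had 72.0. *Pvalb*, parvalbumin, had 883.6 and 2046.8 against 401.9, 497.2 and 238.6, and 5.3 in the array labelled CA3 replicate 3. *Car8*, a carbonic anhydrase-related protein, had 3849.7 and 9876.9 against 227.4, 151.6 and 277.2, and 115.0 in that array. *Pcp2*, which encodes Purkinje cell protein 2, had 1883.2 and 3601.6 against 50.6, 81.8 and 80.2, and 294.9 in that array, above the CTX range.

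The summed signal of the 8 Purkinje cell markers on the array was 16182.8 in CbG replicate 1, 37744.5 in CbG replicate 2 and 2813.5 under the third CA3 label, with 4382.3 to 5670.0 in CTX neurons. CbG replicate 2 was the highest of the 3 for each of the 4 genes above. With the labels exchanged *Calb1* (1.65 ± 1.37, limma, adjusted p = 0.378) and *Pvalb* (-0.59 ± 1.34, adjusted p = 0.767) lost their calls, and *Pcp2* (4.37) and *Car8* (3.13) kept theirs. The part of these markers in the differences between CbG and CTX neurons was not tested. In the array with the low sum, granule cell genes lay within or above the range of CbG replicates 1 and 2, with *Gabra6*, *Neurod1*, *Cbln1* and *Calb2* at 2567.6, 8828.9, 7231.9 and 6639.4.

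On the CTX side, markers of interneurons and oligodendrocytes were higher. Of 6 tested interneuron markers (median -1.18) 3 were called, *Vip*, *Npy* and *Sst*, beside 10.8% of all probe sets higher in CTX neurons. *Npy*, neuropeptide Y, had 2021.6, 2486.8 and 2575.3 in CTX neurons against 176.7 and 229.9 in CbG replicates 1 and 2 (-3.26 ± 0.59, limma, adjusted p = 0.00525). *Sst*, somatostatin, differed by -1.99. The summed signal of the 10 interneuron markers was 13039.8 to 17527.8 in CTX neurons and 6409.3 and 9305.6 in CbG replicates 1 and 2. *Gad1*, which makes GABA and is not specific to cortical interneurons, had 7048.8, 9344.5 and 5607.6 against 4413.4 and 7325.4 and was not called.

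Of 9 tested oligodendrocyte markers 4 were higher in CTX neurons (median -1.07), or 5 without centring, 6 with quantile normalization and 7 with the labels exchanged. Of all probe sets 10.8% were higher in CTX neurons over 10 arrays and 12.8% with the labels exchanged. Over 10 arrays that is 966 probe sets, or 1188 without centring and 1223 with quantile normalization. Among the 4 were the myelin genes *Mobp*, at 6096.3, 9767.1 and 10818.2 against 2746.5 and 2497.2, and *Mbp*, at 11557.0, 16531.8 and 18127.8 against 7482.1 and 3696.5. The sum over the 12 on the array was 32137.2 to 49683.9 in CTX neurons and 16239.7 and 18554.9 in CbG replicates 1 and 2. Of 13 tested astrocyte markers 2 were higher in CbG neurons, *Aqp4* (1.58) and *Gfap* (1.00), and 1 in CTX neurons (median -0.16), shares near the 11.8% and 10.8% of all probe sets. Sums were 53472.2 and 71104.7 in CbG replicates 1 and 2, overlapping those of 55423.1 to 80913.7 in CTX neurons. *Gfap* was not called without centring or with quantile normalization, and 2 dimmer probe sets of *Aqp4* were not called. Of 4 microglial markers 0 (median -0.84) and of 3 vessel markers 1 (median -0.93) were called, the latter higher in CTX neurons. With the labels exchanged 3 of the 4 microglial markers were higher in CTX neurons (median -1.18) and 0 of the vessel markers, and without centring or with quantile normalization 2 vessel markers were called over 10 arrays.

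The sums over the 12 microglial markers were 1499.5 to 2293.2 in CTX neurons against 1585.7 and 991.6 in CbG replicates 1 and 2, and those over the 9 vessel markers 2661.8 to 4588.0 against 3124.4 and 1815.7. The part of these cells in the results was not tested. RNA shortened by decay or amplification raises the signal of β-actin near its 3′ end over that near its 5′ end. On the log2 scale this ratio was 3.88 for CbG replicate 1 and 6.52 for CbG replicate 2, with 3.85 for the array labelled CA3 replicate 3 and 4.13 to 5.13 for CTX neurons, so CbG replicate 2 also stood highest there. The same ratio for GAPDH did not single it out, at 1.83 and 2.31 for CbG replicates 1 and 2, 2.36 for the array labelled CA3 replicate 3 and 2.06 to 2.76 for CTX neurons. Median signals were 187.5 and 167.0 in CbG replicates 1 and 2 and 187.0 to 199.3 in CTX neurons.

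As labelled, the 63 calls were almost all of genes that also separated CA3 from CTX neurons. For 62 of them (98.4%) CA3 replicates 1 and 2 both lay beyond every CTX array on the side called, against 721 of the 2029 calls over 10 arrays (35.5%). The array labelled CbG replicate 3, which correlated most with these CA3 arrays, entered the calls as labelled. The share is therefore a description and no separate evidence, and that over all probe sets tested is not given. *Neurod1* had 1621.8 in the array labelled CbG replicate 3, near the 1540.4 and 1510.2 of CA3 replicates 1 and 2 and far above CTX neurons, and its difference was 6.73 ± 0.90 (limma, adjusted p = 0.0179). *Il16* had 1839.7 there against 1764.3 and 2091.0 in CA3 replicates 1 and 2 (6.23 ± 0.80, adjusted p = 0.0138). *Rnf182*, a brain ubiquitin ligase, had 4289.1, 3361.1 and 2208.4 in the arrays labelled CbG against 331.9, 186.5 and 291.9 in CTX neurons (3.77 ± 0.33, adjusted p = 0.00293), and *Susd6* had 1990.3, 1788.8 and 2011.0 against 448.8, 419.9 and 444.0 (2.31 ± 0.20). *Rnf182* and *Susd6* were chosen after their values were seen. *Atp2b3* (1.90) and *Dusp5* (1.79) were also called as labelled.

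On the CTX side the calls as labelled included *Rgs4*, *Egr2*, *Rprm*, *Mef2c*, *Grm3* and *Gstp1*. *Mef2c* was called by 1 of its probe sets (adjusted p = 0.0296), while the brighter one was not (-4.30 ± 0.91, adjusted p = 0.0893). *Rgs4* had 533.0 in the array labelled CbG replicate 3, between the other CbG arrays (-3.09 ± 0.24, limma, adjusted p = 0.00247). *Egr2* and *Rprm* both had 37.0 there, and their differences were -4.74 ± 0.36 (adjusted p = 0.00245) and -4.70 ± 0.44 (adjusted p = 0.0042). Most granule cell genes were not called as labelled. *Gabra6* differed by 4.51 ± 2.55 (adjusted p = 0.453), *Cbln1* by 4.19 ± 2.20 (adjusted p = 0.417) and *Nrgn* by -4.73 ± 2.51 (adjusted p = 0.421). Of the 81 named genes called over 10 arrays, 12 were called as labelled and 79 with the labels exchanged.

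The array labelled CA3 replicate 3 took no part in the fit over 10 arrays. Against CTX replicate 3, which did, it was on the CbG side for 1049 of the 1063 probe sets higher in CbG (98.7%) and on the CTX side for 934 of the 966 higher in CTX neurons (96.7%), with median differences of 1.32 and 1.38 in the direction called. The array labelled CbG replicate 3 was on the same side for 581 (54.7%) and 444 (46.0%), with medians of 0.09 and -0.10. These shares are a description, since the 2 arrays were told apart by their values and CTX replicate 3 enters both sides. Both arrays also counted in the filter on low signals, which chose the probe sets that could be called. *Gabra6* passed that filter only with the array labelled CA3 replicate 3. With the exchange, *Gabra6* differed by 6.98 ± 0.95 (limma, adjusted p = 0.000357), *Nrgn* by -7.06 ± 0.31 (adjusted p = 2.31e-07), *Neurod1* by 7.55 ± 0.36 and *Cck* by -6.23 ± 0.22. The exchange was drawn from values such as those of *Gabra6* and *Nrgn*, so these tests cannot bear on it.

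**Figure D4:**
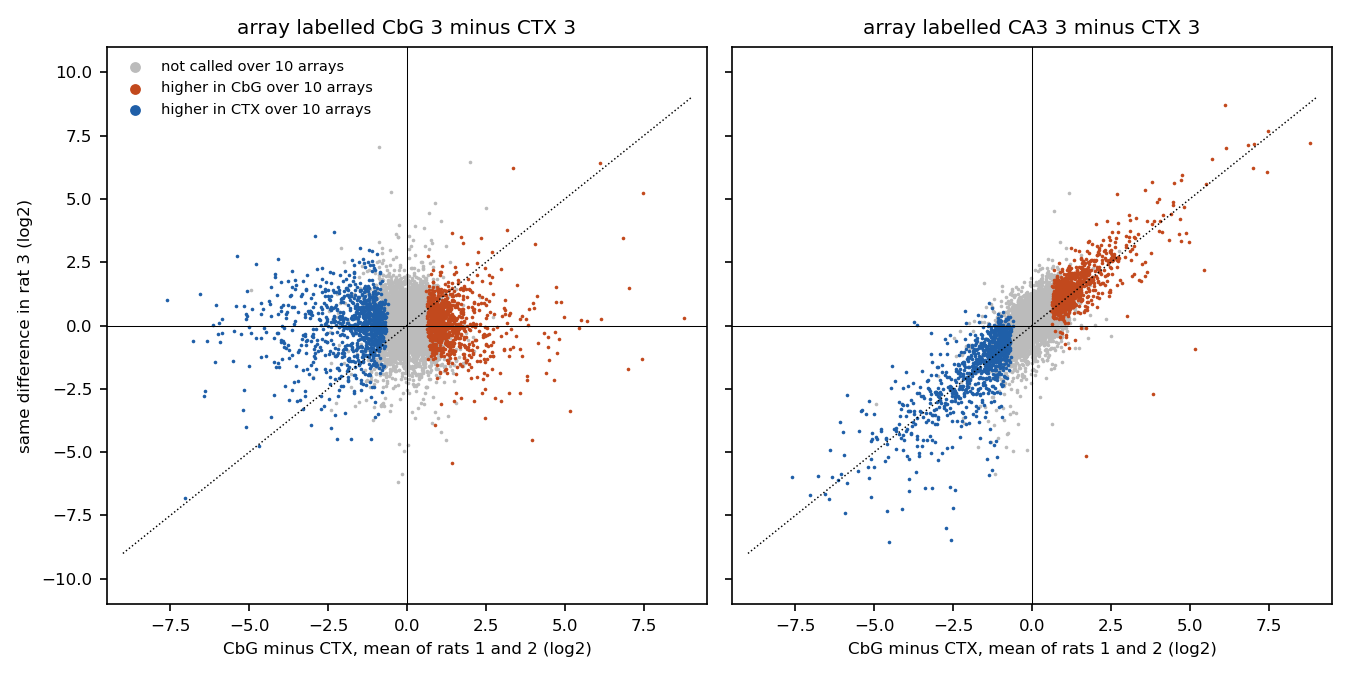
Difference between CbG and CTX neurons in replicate 3 (log2, vertical axis) against the mean difference in replicates 1 and 2 (log2, horizontal axis) for 8986 probe sets. The array labelled CbG replicate 3 is on the left and the array labelled CA3 replicate 3 on the right. Arrays of the same replicate number are taken as the same rat. Colours give the calls over 10 arrays, from a fit with CTX replicate 3 but neither of these arrays. Both arrays counted in the filter on low signals. On the right the points follow the dotted line of equal difference. There 98.7% of the orange points are above 0, against 54.7% on the left.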

How the data were processed

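RNA of laser-captured neurons was measured on 12 arrays (4 regions, 3 rats). The authors deposited MAS5 intensities, not on a log scale, with every array scaled to the same target. MAS5 is credited to the submitters' processing notes, and its version is not given in the sources used here. The table holds 15923 probe sets with signals from 0.1 to 68797.3, and 0 columns lacked a sample. Single probe intensities and detection calls were not used here, so low signals have no detection limit of their own.

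Groups followed the labels. The 57 controls were left out, and 8986 of 15866 probe sets (56.6%) were tested, those whose signal exceeded the array's own median in 3 or more of 12 arrays. After log2 and subtraction of each array's median, a model with 4 region means and the replicate number (rat) as a block was fitted (limma 3.58.1, R 4.3.3), with Benjamini-Hochberg adjustment over all probe sets tested. A call needed a difference of 1.5-fold or more at an adjusted p below 0.05. The fit was tested on simulated data. Same-numbered arrays come from the same rat, as the paper describes regions taken from each animal and used paired tests. Deviations from the region means correlated at a mean of 0.0963 within a number (-0.0414 to 0.165, 13 pairs) and -0.0521 between numbers over 10 arrays. These means were -0.0661 and 0.0237 as labelled, and 0.065 and -0.0321 with the labels exchanged. Deviations within a region cancel out, so the mean between numbers is tied to that within and is no separate evidence.

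Probe sets were named from a table of the array (12783 with 1 symbol, 312 with several, 2771 not listed). A list member was measured by its tested probe set with the highest mean signal, and using the most variable one moved the 10-array counts of 4 lists by at most 2. The members, lists and label arrangements were chosen with earlier results of these data known. Named genes are the markers *Gabra6*, *Neurod1*, *Nrgn* and *Rgs4*, the 12 largest differences in each direction called over 10 arrays and of 1 direction in both within-rat pairs (ranked with signals under 50 set to 50), up to 4 called members of each list, *Sod1*, *Sod2* and *Gpx1*, and others said to be chosen after their values were seen. Alternatives were 2 normalizations, 2 treatments of low signals, 2 filters, no block, other sets of arrays, another prior and the methods' t-test. Plots were made with matplotlib 3.10.9 (Python 3.11.15).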

Additional observations from a re-analysis of the deposited data

Results flagged for a closer look

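The array labelled CA3 replicate 3, which is in neither group when CbG is compared with CTX neurons as labelled, had a *Gabra6* signal of 2567.6 and a *Neurod1* signal of 8828.9. CTX neurons had 11 to 48 and 52.2 to 73.7, and CA3 replicates 1 and 2 had 5.6 and 38.6 for *Gabra6* and 1540.4 and 1510.2 for *Neurod1*. Both signals stood out because they are granule cell signals in an array outside the labelled comparison, above the level in every array labelled CTX.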

How the results depend on the processing

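Over 10 arrays the counts of 1063 (CbG) and 966 (CTX) were 280 and 414 with no filter on low signals, 352 and 478 with the arrays of CbG and CTX alone, 173 and 257 with the array labelled CA3 replicate 3 kept in the fit, and 477 to 1060 and 556 to 921 leaving out 1 array. As labelled (24 and 39) they were 9 and 22 with no filter, 4 and 7 with CbG and CTX alone, 307 and 208 in the methods' t-test at its unadjusted threshold (0 and 0 after Benjamini-Hochberg), and 2 to 173 and 5 to 257 leaving out 1 array, the highest without CbG replicate 3. Those higher in CTX as labelled were 22 with the filter of 8 of 12 arrays, 79 with 50 added, 71 with signals under 50 set to 50, 65 without centring and 80 with quantile normalization. With the labels exchanged (1779 and 1147), those higher in CbG were 1164 without centring and 1158 with no filter, the methods' t-test gave 1132 and 752 (1 and 0 after adjustment), and leaving out 1 array gave 1191 to 1800 and 883 to 1162. Without the replicate block the counts were 1191 and 1069, 50 and 67 (as labelled), and 1745 and 1120 (exchanged). The causes of these shifts were not tested.

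Of 81 named genes called over 10 arrays, 65 kept the call when each array was left out in turn, 57 with no filter, 65 with CbG and CTX alone, and 38 with the array labelled CA3 replicate 3 kept in the fit, where *Gabra6*, *Cbln1*, *Pax6*, *Gabrd* and *Reln* were among the 43 lost. Of single arrays left out, the most were lost without CbG replicate 2 (12), CTX replicate 2 (11) and CTX replicate 1 (8). Signs turned for *Sod1* without centring (-0.001, as labelled -0.007, exchanged -0.095) and with quantile normalization (-0.126, -0.127, -0.208), and for *Pvalb* with the labels exchanged, to 0.34 with 50 added and 0.49 with signals under 50 set to 50. Leaving out 1 array also turned signs, within ranges of -0.23 to 4.03 for *Calb1* and -2.16 to 1.86 for *Pvalb* (exchanged), -0.35 to 1.77 for *Aqp4*, -0.001 to 1.22 for *Gfap*, -1.87 to 0.068 for *Gabrb1*, -2.29 to 0.24 for *Gria1*, -1.56 to 0.11 for *Ldha* and -1.18 to 0.21 for *Hsph1* (as labelled). For *Sod1* these were -0.10 to 0.37 (10 arrays) and -0.049 to 0.19 (exchanged), for *Sod2* -0.45 to 0.37 (10 arrays), -0.16 to 0.25 (as labelled) and -0.24 to 0.17 (exchanged), and for *Gpx1* -0.50 to 0.23 (10 arrays).

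CbG had 2 arrays over 10 arrays, so its own spread rests on 1 difference and on the spread shared with the other regions. Signals under 50 carried no detection call here, and large folds against them depend on how they are treated.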
